A study of Mus musculus with 69 samples.

Results

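The genes described here differed strongly between macrophages of C57BL/6J (C57) and SPRET/EiJ (SPRET) mice after 24 hours of IL-4, and differed by a like amount between the C57 and the SPRET allele within macrophages of their F1 offspring. They were chosen from the 24-hour libraries. The parental difference, C57 minus SPRET in mean log2(TPM + 1), had to exceed 1.5 in size, and the allele difference in the F1 cells had to exceed 1 with the same sign in both F1 libraries. The parental and the allele difference had to lie within 1 of each other, and the mean allele value had to reach 10. Of the 24046 genes listed in both tables, 5768 reached that mean and 88 met every condition, 62 of them higher in SPRET and 26 higher in C57. These values chose the genes, so they are given as a description and were not tested.

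Bone marrow-derived macrophages (BMDMs) were grown from female mice of 8 to 12 weeks of age with M-CSF, the growth factor of this lineage, and were left untreated (basal) or given IL-4 at 20 ng/ml. RNA-seq was available for C57 and SPRET and for 3 further strains, PWK/PhJ (PWK), BALB/cJ (BALB) and NOD/ShiLtJ (NOD), basal and at 24 hours, with 3 libraries a group and 2 for basal PWK. A separate time course held 2 libraries of C57 and 2 of SPRET at each of basal, 1, 6 and 24 hours, and the F1 offspring of C57 and SPRET gave 2 basal and 2 24-hour libraries. Egr2 fl/fl macrophages were set beside LyzM-Cre Egr2 fl/fl macrophages, in which Cre under the lysozyme M promoter removes Egr2 from myeloid cells, with 2 libraries at each of the same times. The study describes its RNA-seq libraries as biological replicates, and the labels do not say which came from separate mice, so p-values measure the spread between these libraries.

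The 2 alleles of an F1 cell share a nucleus and its transcription factors. A difference that persists between them is called local, or cis, because it is tied to the chromosome that carries the allele, through a promoter, an enhancer, the transcript itself or, for imprinted genes, the parent of origin, while a difference that vanishes is called trans. C57 is a classical laboratory strain, and SPRET derives from Mus spretus, a separate species. IL-4 signals through STAT6 and turns macrophages towards the alternatively activated state known from helminth infection, wound repair and allergy.

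The libraries of the 5 strains held 7.02 to 22.5 M tags (M, mega) and those of the time course 5.70 to 24.0 M. In the F1 table the values, multiplied by the listed gene length, fell on whole steps within 0.1 in 100% of the low values examined, which gave 4.69 to 5.43 M weighted allele counts in 7 of the 8 allele columns and 11.1 M in the SPRET column of the second 24-hour library. Of the 11 macrophage lineage genes listed, 0 in C57 and 1 in SPRET were under 1 TPM at 24 hours of the time course, and their sum was 22123 to 23079 TPM in C57 and 40676 to 40884 TPM in SPRET. In bulk libraries, fewer cells of a type and less RNA per cell cannot be told apart. Of 8 neutrophil marker genes, 7 were under 1 TPM in C57 and 6 in SPRET, where S100a8 reached 68.8 and 86.0 TPM against 6.02 and 7.52 TPM in C57. The summed neutrophil markers were thus 72.2 to 92.2 TPM in SPRET and 6.49 to 8.14 TPM in C57, and their part in the differences below was not tested.

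Sequences are shown first, since a read can be counted at a gene only if its place of origin is clear. The coding sequence of each gene was cut into words of 50 bases and searched in the GENCODE transcripts of all other loci of the C57 reference genome (mm10). The 4 ribosomal protein and cytochrome c genes below are shown because all of the printed coding bases, counted from 1 at the start codon, lay in words that also occur at another locus, as the capitals mark. The last 2, the arginine transporter Slc7a2 and the eotaxin Ccl24, are shown as genes without a single such word. The loci are chr4:86854099-86857367 (Rps6, minus strand), chr6:50562563-50566474 (Cycs, minus), chr5:146832890-146837032 (Rpl21, plus), chrX:37082518-37085222 (Rpl39, minus), chr8:40862367-40922070 (Slc7a2, plus) and chr5:135569937-135573043 (Ccl24, minus).
Rps6, coding bases 1 to 120: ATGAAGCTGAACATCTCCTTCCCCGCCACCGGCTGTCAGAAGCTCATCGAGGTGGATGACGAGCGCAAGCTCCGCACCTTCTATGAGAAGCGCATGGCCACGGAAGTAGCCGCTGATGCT
Cycs, coding bases 1 to 120: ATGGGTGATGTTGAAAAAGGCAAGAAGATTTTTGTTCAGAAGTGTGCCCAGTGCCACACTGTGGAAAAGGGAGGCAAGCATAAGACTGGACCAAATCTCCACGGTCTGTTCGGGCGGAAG
Rpl21, coding bases 1 to 120: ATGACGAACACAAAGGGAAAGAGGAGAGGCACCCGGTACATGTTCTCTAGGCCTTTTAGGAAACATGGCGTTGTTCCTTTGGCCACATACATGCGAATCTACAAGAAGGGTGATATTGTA
Rpl39, coding bases 1 to 150: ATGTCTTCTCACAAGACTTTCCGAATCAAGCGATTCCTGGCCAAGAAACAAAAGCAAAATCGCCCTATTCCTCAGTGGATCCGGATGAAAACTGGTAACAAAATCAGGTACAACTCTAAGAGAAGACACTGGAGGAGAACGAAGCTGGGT
Slc7a2, coding bases 1 to 120: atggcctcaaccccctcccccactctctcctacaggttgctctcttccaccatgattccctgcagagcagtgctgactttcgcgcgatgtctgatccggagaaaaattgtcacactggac
Ccl24, coding bases 1 to 120: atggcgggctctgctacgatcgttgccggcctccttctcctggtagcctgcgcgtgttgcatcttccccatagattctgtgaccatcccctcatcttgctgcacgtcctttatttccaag

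Copies of this kind were common among the 88 genes. Of the 78 with a coding transcript, 30 (38.5%) shared at least 50% of their coding words with another locus, against 4.94% of 5283 other genes past the minimum mean. The share was 48.1% (26 of 54) among the genes higher in SPRET and 16.7% (4 of 24) among those higher in C57. Genes with a parental difference beyond the threshold that were not members held such copies in 28.4% of 232 higher in SPRET and in 4.25% of 212 higher in C57, so the direction of the imbalance was shared with genes outside the set. At the other end, 36 of the 78 shared no coding word with another locus, 23 of them higher in SPRET and 13 higher in C57. How reads that fit several positions were treated is not given in the sources used here, and the part of these copies in the measured differences was not tested. Each gene with a copy is therefore uncertain as to the locus its reads came from.

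**Figure D1:**
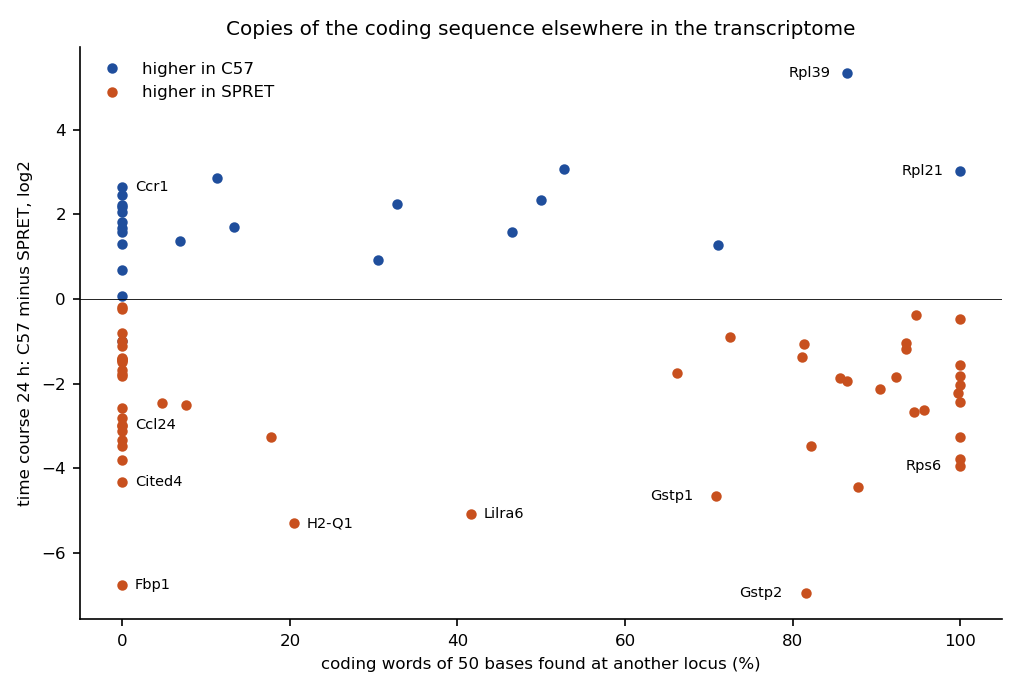
The C57 minus SPRET difference after 24 hours of IL-4 in the time course (log2(TPM + 1), vertical axis) against the share of coding words of 50 bases found at another locus (percent, horizontal axis), for members with a coding transcript, each point being 1 gene. Members without a copy, such as Fbp1, Ccl24 and Ccr1, stand at 0%, and Rps6, Rpl21, Gstp2 and Rpl39 lie above 80%.

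Gstp2 had the widest parental difference of all members. It and its neighbour Gstp1 encode pi-class glutathione S-transferases, enzymes that couple electrophiles to glutathione. They lie side by side on the minus strand at chr19:4035411-4037912 and chr19:4040288-4042221. Their coding sequences are 98.1% identical, with 12 differing bases of 630, all of them in the windows printed here, in which capitals mark the differing bases.
Gstp1, coding bases 1 to 60: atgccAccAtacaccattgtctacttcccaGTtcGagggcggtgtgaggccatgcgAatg
Gstp2, coding bases 1 to 60: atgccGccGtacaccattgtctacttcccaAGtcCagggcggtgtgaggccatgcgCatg
Gstp1, coding bases 256 to 330: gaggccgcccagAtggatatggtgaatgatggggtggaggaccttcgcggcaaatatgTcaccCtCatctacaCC
Gstp2, coding bases 256 to 330: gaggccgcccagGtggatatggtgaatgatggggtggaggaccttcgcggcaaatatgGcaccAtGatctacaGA

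Basal Gstp1 was 675, 650 and 662 TPM in SPRET and 30.4, 23.1 and 29.7 TPM in C57. Gstp2 was 378, 357 and 389 TPM in basal SPRET and listed at 0 in all 3 basal C57 libraries. No C57 library came near a SPRET library for either gene. In the time course Gstp1 stayed lower in C57 by 3.71 ± 0.10 (log2, SE, n = 2 a strain) before IL-4 and by 4.66 ± 0.10 after 24 hours (limma adjusted p = 1e-11 and 1.4e-12). In the basal F1 libraries the SPRET allele of Gstp1 had 889 and 1349 weighted counts and the C57 allele 14 and 14, and for Gstp2 the counts were 829 and 565 against 0 and 1. PWK lay between the parents for Gstp1, with 115 and 121 TPM, but close to C57 for Gstp2, with 1.47 and 0.441 TPM.

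Promoter sequences of 69 of the 88 genes were found in the RefSeq table (GRCm38.p6). The 250 bases before the start of Gstp1 and Gstp2 are printed because both hold TGACTCA, the letters bound by AP-1 and in part by NRF2 and MAF factors (capitals; searched on both strands, so that it also appears as TGAGTCA).
Gstp1, chr19:4037913-4038162, minus strand: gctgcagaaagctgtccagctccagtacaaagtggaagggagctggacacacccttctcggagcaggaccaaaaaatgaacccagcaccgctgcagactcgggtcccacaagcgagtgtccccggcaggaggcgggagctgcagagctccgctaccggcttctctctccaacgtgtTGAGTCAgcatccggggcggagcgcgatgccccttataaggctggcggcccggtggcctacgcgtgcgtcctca
Gstp2, chr19:4042222-4042471, minus strand: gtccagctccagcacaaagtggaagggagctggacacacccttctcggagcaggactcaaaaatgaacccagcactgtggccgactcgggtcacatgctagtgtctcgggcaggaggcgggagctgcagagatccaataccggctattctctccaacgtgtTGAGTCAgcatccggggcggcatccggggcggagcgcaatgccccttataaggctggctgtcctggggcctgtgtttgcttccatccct
A gene with several starts in the table was counted if any of its promoters held the letters. TGACTCA stood in 5 of the 69 genes (Dhrs9, Fblim1, Gstp1, Gstp2 and Mgst2), or 7.25%, and in 5.16% of all 27018 genes with a promoter. TGACNNNGC, the antioxidant response element, which can overlap TGACTCA, stood in 12 of 69 (17.4%, against 11.5% of all). The STAT6 motif, TTC and GAA with 4 bases between them, stood in 2 of 69 (2.90%, against 6.75%) and GCGTGGGCG, the EGR letters, in 1 (1.45%, against 0.622%). The TGACTCA search was added after the promoters had been read. These are letters of the C57 reference, and the SPRET sequence was not used here.

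**Figure D2:**
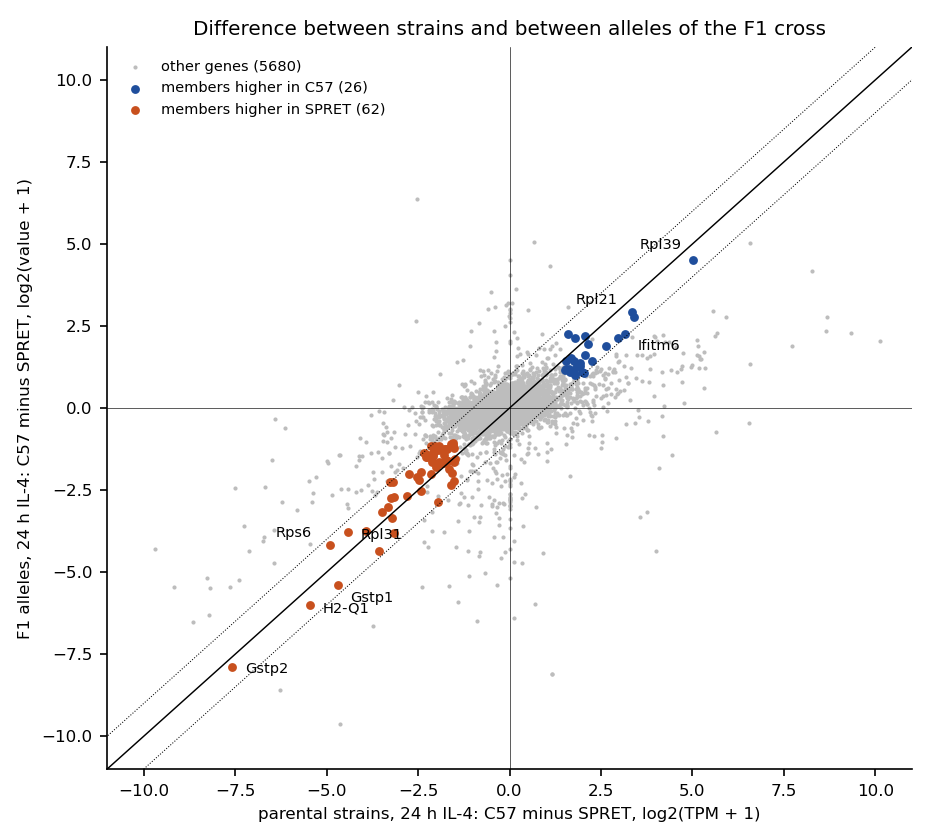
Difference between the parental strains (C57 minus SPRET, log2(TPM + 1), horizontal axis) and between the alleles in F1 cells (log2(value + 1), vertical axis) after 24 hours of IL-4, for 5768 genes past the minimum mean, with the 88 members in blue and orange. The solid line marks equal differences and the dotted lines a distance of 1, so members lie inside the band by construction. Gstp2 and H2-Q1 lie at the SPRET end, and Rpl39 at the C57 end.

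The spread of the rule values was wide. Parental differences ran from -7.57 for Gstp2 to 5.02 for Rpl39, and allele differences from -7.89 to 4.52 for the same genes. Closest to the thresholds, Ncoa4 and Rpl36al were just inside on the parental difference (-1.50 and -1.51), with Tgfbr2 (-1.498) and Sdc1 (1.49) just outside. On the allele difference, Dhrs9 (1.01) and Mcoln2 (-1.08) were inside while Rhbdd2 (-0.957) and 1110008P14Rik (-0.940) were outside. On the distance between the parental and the allele difference, Kpna2 (0.997) and AA414768 (0.982) were inside, and Fxyd2 (1.02) and Higd1a (1.05) outside. On the mean allele value, Mettl23 (10.8) and Mgst2 (11.3) were inside, and Fndc10 (9.99) and Zfp467 (9.82) outside.

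The time course gave a comparison in libraries the choice had not used. After 24 hours of IL-4, 20 of the 25 tested genes higher in C57 and 53 of the 62 higher in SPRET were called in the same direction, where 9.75% and 10.7% of all 12088 genes tested were called in these directions (limma, over 2-fold with an adjusted p under 0.05). No gene was called in the opposite direction at that time, but Tifab was reversed just short of 2-fold, as described below. Trnp1 was not tested because it was too low in the time course. It was 0.04 and 0 TPM in C57 and 0.238 and 0.099 TPM in SPRET at 24 hours. In the C57 libraries of the rule it was 2.93, 2.91 and 2.26 TPM, so its difference did not recur in the time course. In the basal 5 strains Trnp1 was 4.635, 4.25 and 4.28 TPM in C57 and 0 in SPRET. Its basal F1 counts were 185 and 189 for C57 and 6 and 8 for SPRET. At 24 hours of the time course, all libraries of the strains separated for 23 of 26 and 61 of 62 genes. They did so for 39.4% and 41.7% of all genes. Before IL-4, 20 of 25 and 47 of 62 were called, against 8.88% and 9.92% of all genes. At 1 hour these counts were 21 of 25 and 46 of 62 (9.36% and 10.2% of all genes), and at 6 hours 20 of 25 and 51 of 62 (8.54% and 10.0%), where Snord45c alone of the members was called in the opposite direction. The median difference of the genes higher in SPRET was -2.05 before IL-4 and -2.29 at 24 hours, and of those higher in C57 2.14 and 2.05, beside medians over all genes of -0.066 and -0.017.

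The basal libraries of the 5 strains gave a like count, with 25 of 26 and 52 of 62 genes called in the direction of the rule (9.52% and 8.58% of 11907 genes). Mcoln2 was called the other way there, as described below. In the basal F1 libraries, 16 of 26 and 49 of 62 genes were called for the same allele (3.04% and 4.04% of 11498 genes), with median allele differences of 1.81 and -1.88. The calls were uneven by copies. They held 27 of the 30 members with at least 50% of coding words at another locus and 21 of the 36 with none. They also held 11 of 12 with a smaller share and 6 of 10 without a coding transcript. The share of all genes split in this way was not counted. The basal F1 count rests on both basal libraries. With either left out, 1 basal library remained, too few to call any gene. By size alone, 73 of the 88 members passed 2-fold towards the allele of the rule in both basal libraries. Of the 11498 genes, 3.41% did so for the C57 allele and 4.10% for the SPRET allele. In all 4 of these comparisons (time course basal and 24 hours, 5 strains basal, F1 basal) 50 of the 88 genes were called in the direction of the rule, 39 higher in SPRET and 11 higher in C57. AA414768 and Slpi were called in none. How many of all genes were called in all 4 was not counted, so these numbers have no share of all genes beside them.

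**Figure D3:**
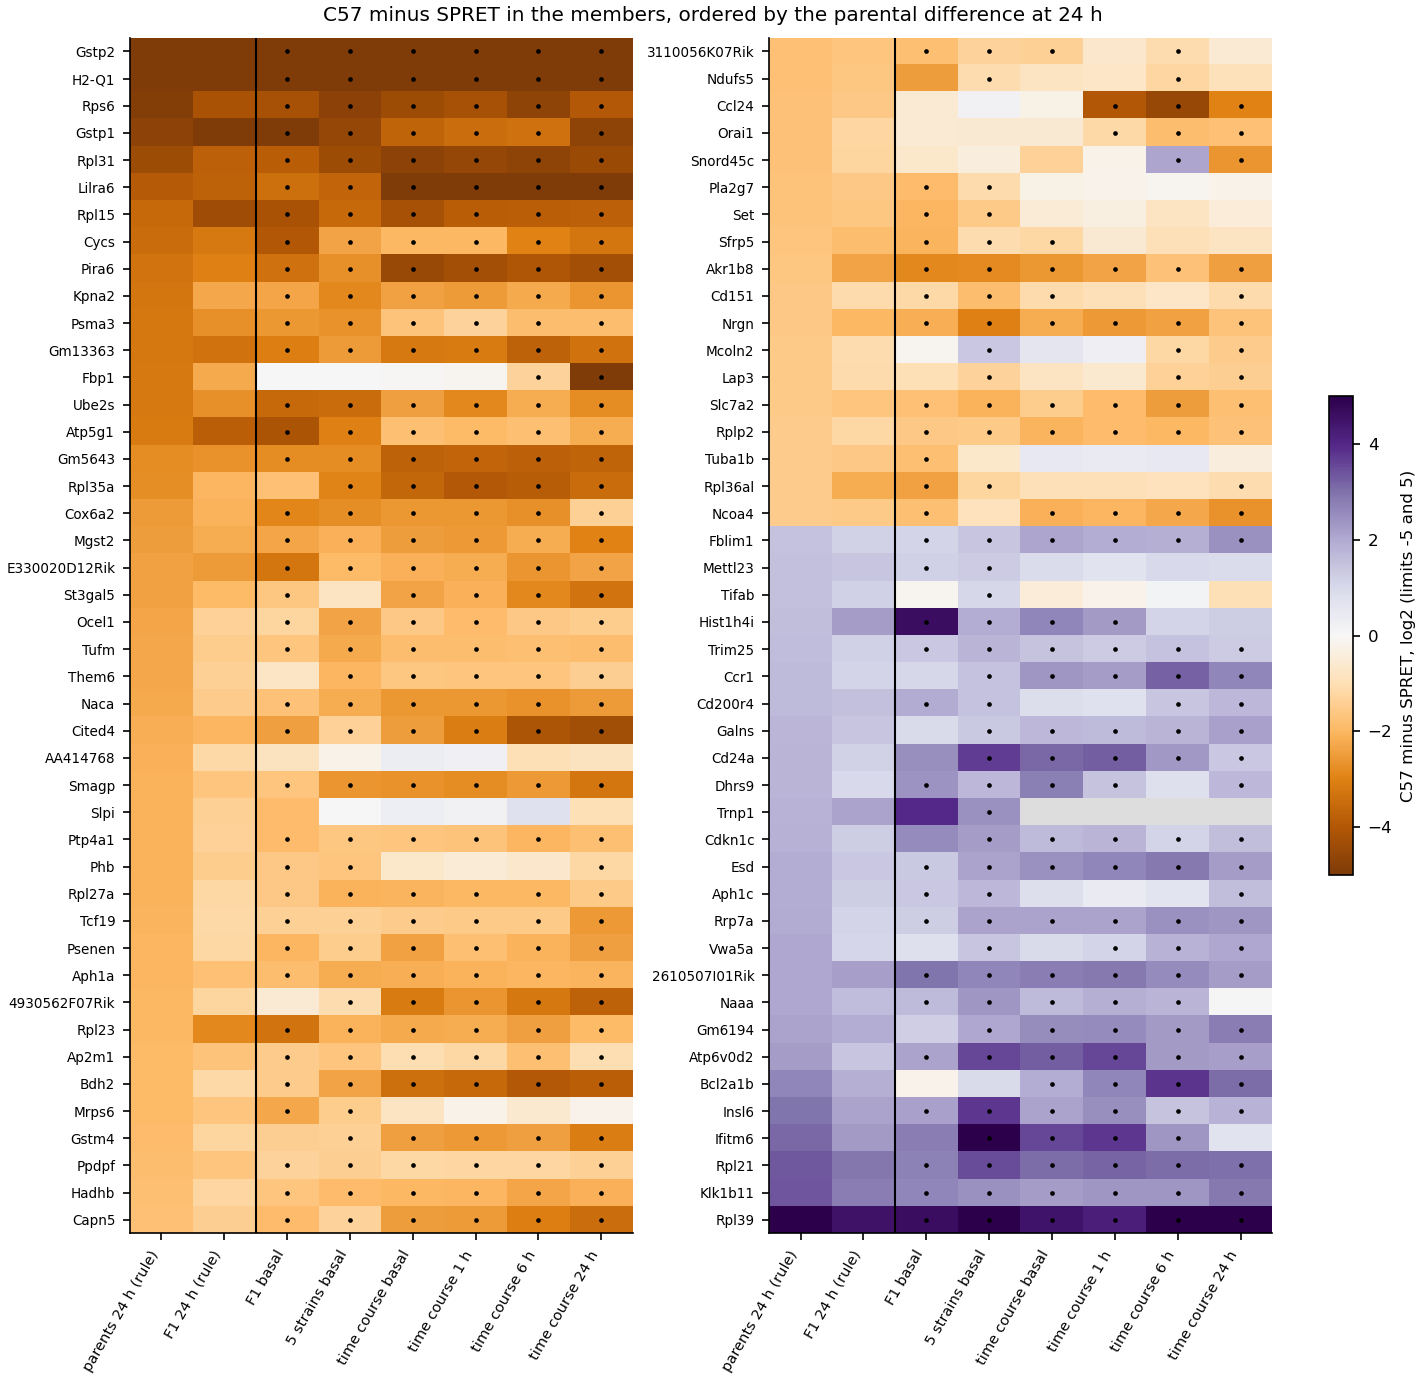
C57 minus SPRET (log2, colour, cut at -5 and 5) for all 88 members in 8 comparisons, ordered by the parental difference after 24 hours. The first 2 columns are the values of the rule, dots mark calls in the other 6, and grey marks Trnp1, which was not tested in the time course. The difference kept its colour across most rows, and Fbp1, Ccl24, Mcoln2, Slpi and Tifab are rows in which it did not.

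Ribosomal protein genes formed the largest family among the members, a grouping made after the values were seen. Rps6, Rpl31, Rpl15, Rpl35a, Rpl23, Rpl27a, Rplp2 and Rpl36al were higher in SPRET, and Rpl39 and Rpl21 in C57. Basal Rps6, a protein of the small ribosomal subunit, was 251, 237 and 247 TPM in SPRET and 8.81, 6.37 and 9.62 TPM in C57. The libraries did not overlap, and the whole coding sequence of Rps6 recurs elsewhere. Basal Rpl39, an X-linked gene of the large subunit that overlaps Snora69 on the same strand, went the other way, with 151, 124 and 132 TPM in C57 and 3.88, 2.06 and 4.13 TPM in SPRET. The time course at 24 hours gave 5.34 ± 0.46 for Rpl39 and 3.02 ± 0.20 for Rpl21 (adjusted p = 5.1e-07 and 4e-08). In the basal F1 libraries the C57 allele of Rpl39 had 314 and 310 counts and the SPRET allele 13 and 8. Rpl39 and AA414768 were the members on the X chromosome. The mice were female, and which X chromosome was active in the F1 cells was not examined. Among all 80 ribosomal protein genes tested, 41 were called higher in SPRET and 6 higher in C57 at 24 hours of the time course. Of the 80 with a coding transcript, 64 shared at least 50% of their coding words with another locus. For this and the lists below, 9.75% of all genes were called higher in C57 and 10.7% higher in SPRET at 24 hours of the time course. The shares were 9.52% and 8.58% in the basal 5 strains, and 3.04% and 4.04% in basal F1 cells.

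Mitochondrial genes were also present, again grouped afterwards, and these too had copies in part. Cycs encodes cytochrome c, Atp5g1 a ring subunit of ATP synthase, Ndufs5 a subunit of complex I, Hadhb a subunit of the enzyme of fatty acid oxidation, Phb prohibitin and Tufm the mitochondrial elongation factor. Each of these 6 was higher in SPRET, and between 72.5% (Ndufs5) and 100% (Cycs) of their coding words were found at another locus. Cox6a2, the heart and muscle form of a cytochrome oxidase subunit, had no copy. It was 98.3, 106 and 98.0 TPM in basal SPRET and 13.2, 17.9 and 12.3 TPM in basal C57, and its difference in the time course was -2.61 ± 0.22 before IL-4 and -1.40 ± 0.22 at 24 hours (adjusted p = 5.2e-07 and 0.00013). Cox6a2 overlaps Itgad on the opposite strand.

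The gamma-secretase complex, which cuts transmembrane proteins such as Notch and the amyloid precursor, was represented on both sides. Psenen and Aph1a were higher in SPRET and Aph1c, an alternative to Aph1a in the complex, was higher in C57. Basal Aph1a was 34.3, 34.3 and 35.8 TPM in SPRET and 7.13, 6.71 and 6.67 TPM in C57, while Aph1c was 3.16, 3.51 and 3.16 TPM in SPRET and 12.5, 13.3 and 12.9 TPM in C57. The libraries of the strains did not overlap for either gene. In basal F1 cells the alleles differed by -1.87 ± 0.18 for Aph1a and by 1.40 ± 0.21 for Aph1c (adjusted p = 0.020 and 0.035). All coding words of Aph1a and of Psenen, and 46.5% of those of Aph1c, were found at another locus, for Aph1c at its neighbour gene Aph1b.

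Detoxifying enzymes were the gene list with the most members, 5 of 68 genes. Besides Gstp1 and Gstp2 these were Gstm4, a mu-class transferase, Mgst2, a microsomal transferase that can also make leukotriene C4, and Akr1b8, an aldo-keto reductase, and all 5 were higher in SPRET. Over the whole list 13 of 59 genes tested were called higher in C57 and 17 higher in SPRET at 24 hours of the time course, with a median of -0.17. Mgst2 was 337 and 347 TPM in SPRET and 59.5 and 62.4 TPM in C57 before IL-4, and 138 and 148 against 19.5 and 14.7 TPM at 24 hours. Both strains thus fell, by 1.79 in C57 and 1.25 in SPRET on the log2 scale, and the strains stayed apart. Akr1b8 differed by -2.59 ± 0.07 before IL-4 and -2.45 ± 0.07 after (adjusted p = 2.5e-11 and 3.2e-11). In basal F1 cells the SPRET allele of Akr1b8 had 2747 and 3143 counts and the C57 allele 334 and 525. Gstm4, Mgst2 and Akr1b8 shared between 0% and 4.67% of their coding words with other loci. Esd, an esterase that releases glutathione from its formaldehyde adduct, was not in the list and was higher in C57, with 595, 544 and 594 TPM against 135, 123 and 136 TPM in basal SPRET.

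Receptors of the immune system were found in both directions. Lilra6 and Pira6, paired immunoglobulin-like receptors encoded on chromosome 7 that bind MHC class I molecules, were higher in SPRET. Lilra6 was 159 and 164 TPM in SPRET and 2.63 and 2.71 TPM in C57 in the basal time course, and Pira6 137 and 140 against 6.41 and 4.20 TPM. In the libraries of the 5 strains the basal SPRET values were lower, with 35.9, 41.1 and 38.0 TPM for Lilra6 and 17.5, 19.5 and 18.9 TPM for Pira6. The family is repetitive, with 41.6% of the coding words of Lilra6 at other loci, and Lilra6 overlaps Pira1 on the same strand. Of the 49 Fc and paired receptors tested, 14 were called higher in C57 and 17 higher in SPRET at 24 hours of the time course. H2-Q1, a class I gene of the Q region of the MHC, was 35.8, 39.4 and 39.4 TPM in basal SPRET and 0.0440, 0 and 0.0660 TPM in basal C57. Of the MHC class I list, 15 of 33 genes tested were called higher in C57 and 7 higher in SPRET at 24 hours of the time course (all genes, 9.75% and 10.7%), and 20 and 4 of 35 in the basal 5 strains (all genes, 9.52% and 8.58%).

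On the C57 side, Ccr1, a receptor for the chemokines CCL3 and CCL5, was 55.3 and 55.3 TPM in C57 and 9.96 and 9.77 TPM in SPRET before IL-4, and 74.3 and 80.9 against 10.9 and 12.3 TPM at 24 hours (2.64 ± 0.09, adjusted p = 1.3e-10). In basal F1 cells its allele difference was 1.02 ± 0.23, with an adjusted p of 0.072. Cd200r4, an activating receptor of the CD200R family, was 38.8, 40.1 and 38.4 TPM in basal C57 and 13.8, 12.8 and 12.3 TPM in basal SPRET. Trim25, a ubiquitin ligase that activates the RNA sensor RIG-I, was 48.8, 57.9 and 46.8 TPM in basal C57 and 13.4, 14.3 and 14.1 TPM in basal SPRET, and its F1 alleles differed by 1.39 ± 0.13 (adjusted p = 0.020). Trim25 and Ifitm6 were the 2 members among the interferon-induced antiviral genes. Of these, 28 of 64 tested were called higher in C57 and 3 higher in SPRET at 24 hours of the time course (all genes, 9.75% and 10.7%). In the basal 5 strains the counts were 46 and 2 of 65 (all genes, 9.52% and 8.58%). Of the 33 chemokine and receptor genes tested, 9 were called higher in C57 and 8 higher in SPRET at 24 hours of the time course, with Ccr1 and Ccl24 as the members. In the basal 5 strains the balance differed, with 17 higher in C57 and 2 higher in SPRET of 33.

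Lysosomal genes higher in C57 included Galns, the sulfatase that degrades keratan sulfate and is lost in Morquio syndrome. It was 58.2, 54.9 and 55.2 TPM in basal C57 and 21.6, 22.3 and 20.6 TPM in basal SPRET, without a copy elsewhere. The F1 allele difference of 0.95 ± 0.10 had an adjusted p of 0.022 but did not reach 2-fold. Naaa, which hydrolyses N-acylethanolamines, was 23.1 and 24.7 TPM in C57 and 6.69 and 7.09 TPM in SPRET before IL-4. At 24 hours it was 9.17 and 10.0 TPM in C57 and 9.34 and 8.79 TPM in SPRET, so that the strains overlapped. Of the 51 lysosomal proteases and hydrolases tested, 12 were called higher in C57 and 11 higher in SPRET at 24 hours of the time course, and 10 and 5 of 51 in the basal 5 strains. The lists of metabolism and secretion held the remaining members. At 24 hours of the time course, 11 of 72 lipid and cholesterol genes were called higher in C57 and 26 higher in SPRET (14 and 22 of 73 in the basal 5 strains), with Hadhb and Pla2g7 as members. Of 36 extracellular proteases and inhibitors the counts were 15 and 7 (9 and 5 of 44 in the basal 5 strains), with Slpi as the member.

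The size of the difference depended on IL-4 for a part of the genes. Of the 87 tested, 17 (19.5%) had a response that differed between SPRET and C57 at 24 hours of the time course, against 6.22% of all genes tested. The members were chosen at 24 hours, so genes whose difference appears with IL-4 had an entry that genes losing it did not. The difference was larger at 24 hours for 11 of the 17, of which 9 were higher in SPRET, and smaller for 6, of which 5 were higher in C57.

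Fbp1, the gluconeogenic enzyme fructose-1,6-bisphosphatase, was the plainest case. It was listed at 0 in all C57 time-course libraries. In SPRET it was 0 and 0.0630 TPM before IL-4, 1.58 and 1.38 TPM at 6 hours and 110 and 106 TPM at 24 hours. Its call at 24 hours had an adjusted p of 8.7e-13. In the 5 strains it was 8.04, 7.98 and 8.29 TPM in SPRET at 24 hours, far below the time course. In F1 cells both alleles were at 0 in both basal libraries, and at 24 hours the SPRET allele had 780 and 925 counts and the C57 allele 115 and 110. The C57 allele thus had weighted counts in F1 cells while the C57 parent was at 0. Reads assigned to the wrong allele were not tested, and Cd24a also had SPRET allele counts of 69 and 651 at 24 hours with the SPRET parent at 0.113 to 0.213 TPM.

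Ccl24, the eotaxin that draws eosinophils, was 0.0720 and 0.227 TPM in C57 and 0.294 and 0.433 TPM in SPRET before IL-4. After 1 hour it was 21.1 and 17.8 TPM in SPRET and 0.172 and 0.348 TPM in C57, and after 24 hours 44.1 and 37.1 TPM against 4.05 and 4.54 TPM. Its response was larger in SPRET by 2.73 ± 0.21 (adjusted p = 2e-06). In F1 cells at 24 hours the SPRET allele had 226 and 235 counts and the C57 allele 56 and 51. Slc7a2, which brings in the arginine that arginase 1 uses, rose in both strains, from 25.9 and 23.5 to 328 and 340 TPM in C57 and from 66.2 and 73.3 to 1240 and 1136 TPM in SPRET, and its difference was present before IL-4 (-1.46 ± 0.06, adjusted p = 8.9e-10). Over the alternative activation list, 11 of 44 genes tested were called higher in C57 and 14 higher in SPRET at 24 hours, and in basal F1 cells 3 and 8 of 42.

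Mcoln2, an ion channel of endosomes and lysosomes, changed its order with IL-4. Basal libraries had 82.0 and 76.0 TPM in C57 and 48.9 and 54.2 TPM in SPRET, and the 24-hour libraries 64.4 and 60.8 against 183 and 173 TPM. The 5 strains had the same order in basal cells, 64.2, 65.3 and 56.8 TPM in C57 over 23.7, 22.9 and 22.5 TPM in SPRET. The response differed by 2.10 ± 0.12 (adjusted p = 2e-07). In basal F1 cells the alleles were nearly level, at 829 and 982 counts for C57 and 904 and 948 for SPRET. Orai1, the pore of the store-operated calcium channel, had a response larger in SPRET by 1.20 ± 0.12, and Cited4, a cofactor of CBP and p300, by 1.85 ± 0.25 (adjusted p = 1.8e-05 and 0.00014). Cited4 was 0.806 and 1.04 TPM in basal C57 and 9.42 and 9.97 TPM in basal SPRET, and 4.14 and 2.32 against 74.2 and 90.0 TPM at 24 hours.

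Genes higher in C57 with a difference that narrowed included Atp6v0d2, a subunit of the proton pump of lysosomes that rises with IL-4. It rose from 206 and 189 to 702 and 699 TPM in C57 and from 21.3 and 18.4 to 158 and 144 TPM in SPRET, so the difference went from 3.25 ± 0.07 to 2.21 ± 0.07. Ifitm6, of the interferon-induced transmembrane family, fell in C57 from 17.1 and 12.5 to 1.74 and 0.986 TPM, near the level of SPRET (0.703 and 0 TPM before, 0.609 and 0.305 TPM after). Cd24a, a glycosylated surface protein, fell in C57 from 9.94 and 9.63 to 1.65 and 2.04 TPM, with SPRET at 0.208 and 0.205 TPM and then 0.108 and 0.0900 TPM.

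**Figure D4:**
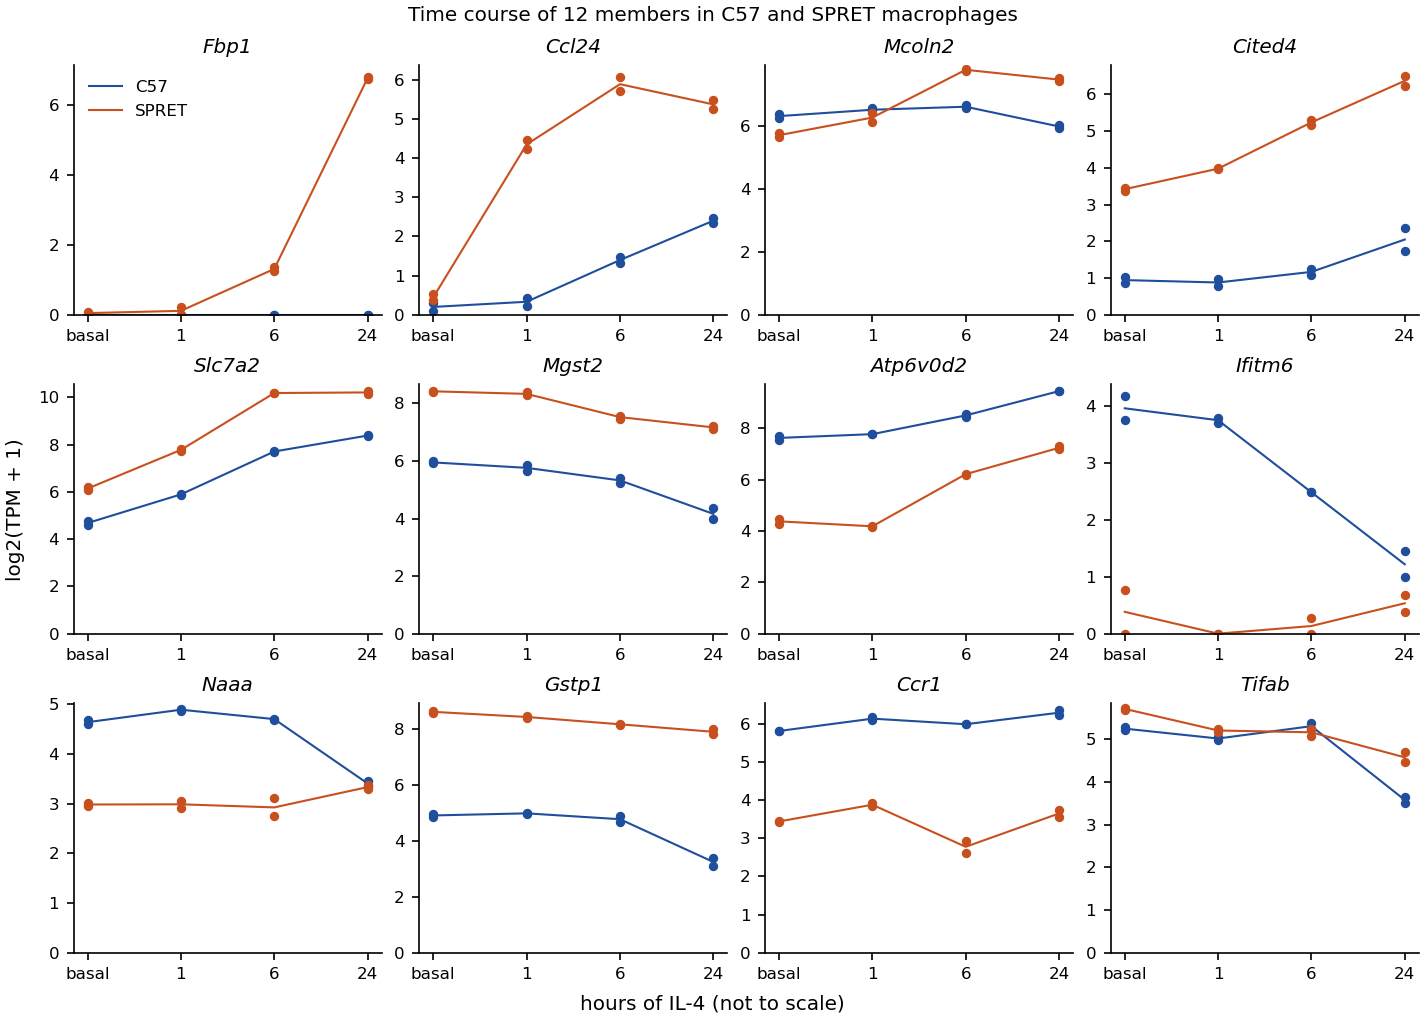
Log2(TPM + 1) of 12 members in C57 (blue) and SPRET (orange) at basal, 1, 6 and 24 hours of IL-4, each point being 1 library and lines joining means of 2 libraries. Slc7a2, Mgst2, Gstp1, Atp6v0d2 and Ccr1 stayed apart at all times, Fbp1 and Ccl24 separated with IL-4, Mcoln2 crossed, and Naaa and Ifitm6 converged.

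A few members differed from the rule values, or fell short of the 2-fold limit, in libraries the rule had not used. Tifab, a relative of the TRAF-interacting adaptor TIFA, was 24.1, 24.3 and 20.9 TPM in C57 and 6.93, 6.78 and 8.01 TPM in SPRET in the 24-hour libraries of the rule. In the time course at 24 hours its order was reversed, with 11.6 and 10.3 TPM in C57 and 24.9 and 21.03 TPM in SPRET. That difference of -0.998 ± 0.09 was just short of 2-fold. The basal time course was also reversed, at 36.0 and 38.1 against 52.2 and 50.7 TPM. Basal libraries of the 5 strains kept the direction of the rule, at 26.8, 33.8 and 24.3 against 12.3, 15.2 and 12.5 TPM. Basal F1 counts of Tifab were 964 and 1229 for C57 and 1069 and 1162 for SPRET. Bcl2a1b, a BCL2 relative that protects from apoptosis, was higher in C57 in the time course at 24 hours by 3.07 ± 0.07 (adjusted p = 2.3e-12), but its basal F1 alleles differed by -0.18 ± 0.10. At 24 hours its C57 allele had 233 and 267 counts and its SPRET allele 58 and 133, and 52.7% of its coding words were found at other loci. Slpi, a secreted inhibitor of neutrophil elastase, was equal in basal cells (824, 770 and 849 TPM in C57, 793, 778 and 822 TPM in SPRET) and in the 24-hour libraries of the rule was 183, 179 and 210 TPM in C57 and 806, 826 and 825 TPM in SPRET. BALB and NOD were at 199 to 272 TPM at that time, near C57, and PWK at 746 to 824 TPM, near SPRET. In the time course at 24 hours Slpi was 299 and 262 TPM in C57 and 570 and 547 TPM in SPRET, in the direction of the rule and just short of 2-fold (-0.99 ± 0.08). Its F1 values rest on 8 and 14 counts for the C57 allele and 43 and 45 for the SPRET allele. With Slpi, 8 members had an allele column under 10 counts at 24 hours (2610507I01Rik, Gm13363, Gstp2, H2-Q1, Hist1h4i, Klk1b11, Slpi and Snord45c).

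The F1 libraries differed from each other at 24 hours. Allele differences were larger in the first library for 81 of 88 members, with medians of 1.99 and 1.32 in the direction of the rule, while in basal cells they were larger in the first library for 50 of 88, with medians of 1.97 and 1.86. Across genes the allele differences of the 2 libraries had a Pearson r of 0.467 at 24 hours and 0.687 in basal cells, over 11498 genes that share library and gene models. From the first to the second 24-hour library, the counts of the C57 column had a median ratio near 1 (0.989 for members higher in C57, 0.978 for those higher in SPRET, 1.02 for other genes). The counts of the SPRET column had a median ratio of 3.00 for members higher in C57, 1.34 for those higher in SPRET and 2.13 for other genes. Trim25 shows it, with C57 counts of 1572 and 1676 and SPRET counts of 557 and 1775, whereas the basal counts were 2312 and 2494 for C57 and 833 and 873 for SPRET. Cdkn1c, an inhibitor of cell division that is imprinted and read from the maternal copy, had 152 and 121 counts from C57 but 24 and 244 from SPRET. The allele columns are each scaled to their own total, and the part of the second library in the choice of members was not tested beyond leaving it out. With the first 24-hour library alone, the rule gave 125 genes, 36 higher in C57 and 89 higher in SPRET, of which 82 were among the 88.

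**Figure D5:**
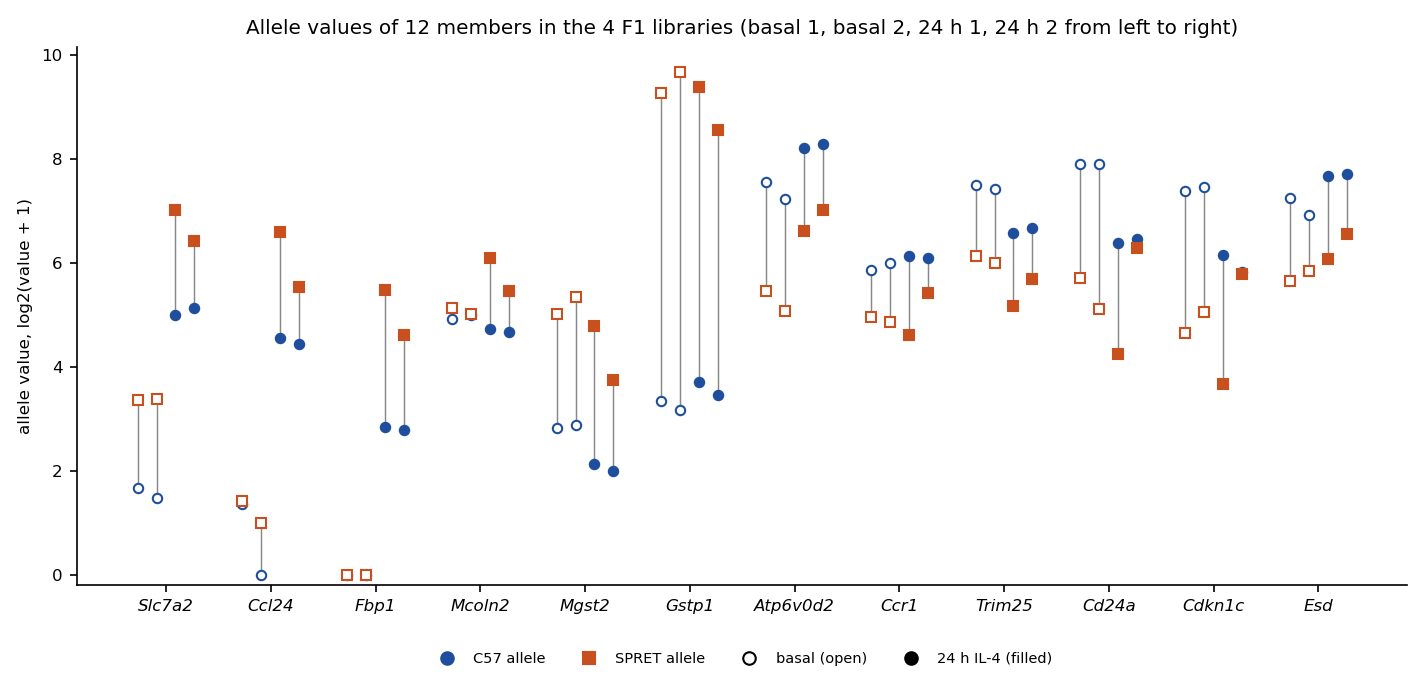
Allele values (log2(value + 1)) of 12 members in the F1 libraries, with circles for the C57 allele, squares for the SPRET allele, open symbols for basal and filled for 24 hours of IL-4, and a line joining the alleles of a library. In the second 24-hour library (rightmost of each 4) the alleles lay closer than in the first for every gene shown, and for Cdkn1c and Cd24a they nearly met, while both Fbp1 alleles were at 0 in basal cells, where the symbols overlie.

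The other strains showed on which side each difference fell. In basal cells BALB, NOD and PWK were nearer to C57 than to SPRET for 71, 67 and 64 of the 88 genes. Of all 11907 genes tested 73.2%, 65.8% and 61.7% were nearer to C57, and of the 2078 other genes called between C57 and SPRET 86.3%, 80.3% and 67.3%, so these counts are not particular to the members. The medians of strain minus C57 over all genes were 0.04, -0.30 and -0.16 (log2). PWK, the other wild-derived strain, was called lower than C57 for 14 of 26 genes higher in C57 (8.81% of all genes were called lower in PWK) and higher than C57 for 15 of 62 genes higher in SPRET (4.49%). Against SPRET it was called higher for 15 of 26 (8.20%) and lower for 43 of 62 (14.2%). For 10 genes both held, so that PWK lay between the parents, as for Gstp1. How many of all genes met both was not counted, so this number has no share beside it. Rps6 also had an intermediate PWK value, of 120 and 127 TPM, and BALB and NOD values of 3.13 to 7.92 TPM. Rpl39 was low in SPRET alone, with 124 to 204 TPM in the other 4 strains.

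For some genes C57 rather than SPRET stood apart. H2-Q1 was 26.8 to 37.8 TPM in basal BALB, NOD and PWK, next to SPRET, and near 0 in C57. Slc7a2 was 15.7 to 16.8 TPM in basal C57 and 66.2 to 109 TPM in the other 4 strains. Pira6 was 34.4 to 38.6 TPM in BALB, above SPRET. Mgst2 went the other way, with 29.9 and 33.2 TPM in PWK and 13.9 to 15.9 TPM in NOD, both below C57. In the same basal libraries Klk1b11, a kallikrein, was listed at 0 in SPRET and at 0.0980 and 0 TPM in PWK, and was 3.51 to 6.31 TPM in the 3 classical strains.

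Loss of Egr2, a transcription factor induced by IL-4, was examined in a separate table. Egr2 itself was 101 and 99.5 TPM in Egr2 fl/fl and 4.72 and 7.05 TPM in LyzM-Cre Egr2 fl/fl macrophages after 24 hours of IL-4. Of the 84 members tested 9 were called between the genotypes (4.55% of 12079 genes), 7 of them lower without Egr2. Atp6v0d2 was 630 and 659 TPM in Egr2 fl/fl and 126 and 116 TPM in LyzM-Cre Egr2 fl/fl (-2.40 ± 0.05, adjusted p = 2.7e-11). Ccr1 was 64.4 and 72.6 against 14.0 and 15.8 TPM (-2.13 ± 0.13, adjusted p = 1.2e-07), Mgst2 22.3 and 17.6 against 3.71 and 4.28 TPM, and Cited4 3.56 and 3.61 against 0.217 and 0 TPM. Sfrp5, a secreted Wnt antagonist, was 6.04 and 4.21 against 0.575 and 0.290 TPM. Cdkn1c and Bdh2 were the other genes that fell, and Ifitm6 and Tcf19 rose, by 1.15 ± 0.23 and 1.01 ± 0.18. Ccl24 was level, at 15.005 and 16.1 against 15.7 and 15.7 TPM. Before IL-4, Atp6v0d2 was already 126 and 123 against 15.7 and 16.5 TPM, and Ccr1 27.4 and 32.1 against 8.13 and 8.91 TPM. Basal Cdkn1c was 175 and 168 against 62.4 and 67.5 TPM, so these differences were not particular to cells given IL-4. Basal Mgst2 was closer, at 48.9 and 56.2 against 32.2 and 34.7 TPM.

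Position gave a further limit. The 88 genes lay on 18 autosomes and the X chromosome, with 13 on chromosome 7 as the most, and 5 pairs lay within 200 kb of each other, each pair higher in SPRET. Besides Gstp1 and Gstp2 these were Ptp4a1 with Gm13363, Psma3 with 3110056K07Rik, H2-Q1 with Tcf19 and Rplp2 with Cd151. Ptp4a1 and Gm13363 overlap on the same strand of chromosome 1, and whether their values share reads was not tested. In all, 19 of the 88 genes (21.6%) overlap another listed gene, among them Rpl31 with Tbc1d8, Capn5 with Omp and Snord45c with Rabggtb. Chromosomes, close pairs and overlaps were not counted over all genes, so these numbers have no share of all genes beside them. The F1 table counts reads over the whole gene span, introns included, while the other tables count exons, so levels are not compared between them.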

How the data were processed

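RNA-seq of mouse BMDMs was analysed from 4 deposited tables, with 29 libraries of the 5 strains, 16 of the time course, 16 of the Egr2 genotypes and 4 of the F1 offspring. The authors aligned reads with STAR to strain genomes, moved them to mm10 coordinates with MMARGE and made TPM values per gene with HOMER, and the deposited values are these TPM. Reads of the F1 offspring were mapped by the authors to the C57 and the SPRET genome, and each gene's count was weighted by its share of reads over strain mutations, multiplied by 10, so that an allele value is an estimate. How reads matching several positions were treated is not given in the sources used here. The deposited columns of the authors' own fold changes and p-values were not used, nor were the human and the C57 by NOD F1 tables.

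Values were taken as log2(value + 1), a scale on which changes of low genes are understated. Genes that reached 1 TPM in 2 or more libraries (F1: a mean allele value of at least 1) were fitted with limma 3.58.1 in R 4.3.3, 1 model for each table. A gene was called past 2-fold with a Benjamini-Hochberg adjusted p under 0.05, adjusted over all genes of the table. All tests were two-sided. Text values and figures were made with Python 3.11.15 and matplotlib 3.10.9, and the fits were tested on simulated data. Correlations between replicates were 0.953 to 0.996 and no pair of libraries was identical. Tag totals in the headers of the Egr2 table, 4.69 to 32.9 M, differed by over 10% from the depth implied by the value steps in 11 of 16 columns. Precision is that of counting and of 2 or 3 libraries a group.

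The members, the gene lists and the rule for named genes were chosen with earlier results of these data known. Genes were named for the largest time-course differences, the highest F1 allele values, membership in a list, the largest differences in IL-4 response, the largest Egr2 changes, values against the rule, closeness to a threshold and neighbouring position. Cd24a, Esd, Aph1a, Aph1c, Psenen, the ribosomal and mitochondrial groups, the limit of 50% of coding words, TGACTCA and any other gene outside that rule were chosen after the values were seen. Alternatives were other pseudocounts, no filter, other scalings, only the groups compared, a replicate block, other limits of the rule and each replicate left out.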

Additional observations from a re-analysis of the deposited data

Results flagged for a closer look

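For 17 members the IL-4 response at 24 hours of the time course differed between the strains by the interaction test (limma, past 2-fold with an adjusted p under 0.05). Values are the SPRET response minus the C57 response in log2. The response was higher in SPRET for Fbp1 (6.72), Ifitm6 (2.90), Ccl24 (2.73), Mcoln2 (2.10), Cited4 (1.85), Cd24a (1.79), Naaa (1.58), Slpi (1.27), Cycs (1.27), Orai1 (1.20), AA414768 (1.17), Dhrs9 (1.09), Tcf19 (1.08) and Atp6v0d2 (1.04). It was lower in SPRET for Cox6a2 (-1.20), Bcl2a1b (-1.13) and Vwa5a (-1.08). The value of Fbp1 depends on the pseudocount, since the C57 libraries were at 0. Other values also rest on levels near 0. Ifitm6 and Cd24a in SPRET, and Cycs in C57, were under 1 TPM both before IL-4 and at 24 hours. Basal Ccl24 was under 1 TPM in both strains. Groups of 2 or 3 libraries were not tested for single libraries that stand apart.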

How the results depend on the processing

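Counts of called members stayed within 1.5 times under most alternatives. The exceptions with a pseudocount of 5 were the different IL-4 response (11 members, from 17), the Egr2 comparison (4, from 9) and PWK against C57 (19, from 29). With a distance limit of 0.5 the rule gave 46 members, from 88. Without either basal F1 library 0 members were called in the basal F1 comparison (0 to 0, from 65), where the lone library was taken to vary like the 24-hour ones. Leaving out a replicate number gave 72 to 76 calls at 24 hours of the time course, 66 to 69 in its basal comparison and 75 to 77 in the 5 strains. It gave 13 to 19 for the IL-4 response, 9 to 10 for Egr2, 57 to 58 for PWK against SPRET and 29 to 31 for PWK against C57. The rule gave 84 to 88 members, with the number left out of the parental strains only and both F1 libraries kept. The members themselves changed more than their number. Of the 88, 66 were among the 89 found with a pseudocount of 0.1 and 51 among 73 with a pseudocount of 5. With median-ratio scaling 69 were among 89, and 79 to 83 were kept without a replicate number of the parental strains. The rule with the first 24-hour F1 library alone, an alternative chosen after seeing the data, gave 125 members.

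Replicate numbers gave no sign of pairing on average, which does not exclude pairing of some libraries. The mean correlation of deviations of same-numbered libraries was 0.013 for the 5 strains (-0.134 to 0.333). It was 0.030 for the time course libraries (-0.143 to 0.266) and -0.0046 for the Egr2 genotypes (-0.139 to 0.0565). With a replicate block the counts were 73 at 24 hours of the time course, 67 in its basal comparison, 77 in the 5 strains, 63 in basal F1 cells, 17 for the IL-4 response, 9 for Egr2, 57 for PWK against SPRET and 29 for PWK against C57.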
